A study of Homo sapiens with 6 samples.

Results

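The Hippo pathway is a kinase cascade that restrains the transcriptional coactivators YAP and TAZ. The kinases STK3 and STK4, held by the scaffold SAV1 and assisted by the membrane protein NF2 (Merlin), activate LATS1 and LATS2, which work with the adaptor MOB1 to phosphorylate YAP and TAZ and keep them out of the nucleus. Unphosphorylated YAP and TAZ enter the nucleus and bind the TEAD transcription factors, which carry the DNA contact. In uveal melanoma, activating mutations of Gq alpha subunits are known to drive YAP, and focal adhesion kinase (FAK) has been described as a link between Gq and YAP that acts on proteins of this cascade by phosphorylation. What follows is the transcript level of 10 of these genes, chosen by symbol: the coactivators YAP1 and WWTR1 (TAZ), the DNA-binding partners TEAD1, TEAD2 and TEAD3, the kinases LATS1 and LATS2, and the upstream or accessory genes NF2, MOB1A and SAV1. Each of the 10 had a row of its own among the 12306 gene rows of the deposited table.

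The cells were 92.1, an established human uveal melanoma line grown with serum, which was the only line used. One group of 3 libraries came from cells given DMSO vehicle for 2 h, and the other of 3 from cells given VS-4718, a small-molecule FAK inhibitor, at 1 µM for the same time. The 3 samples of a group are described as independent, without saying whether they were separate cultures, and the p-values then reflect only how far these samples spread, which can be technical variation. The table gives log2 values on a TPM-like scale (abundance per transcript length, with a common library total), so a log2 value of 0 is 1 TPM-like unit, and read depth is unknown. The melanocyte marker list, from which 11 of 13 genes had a row, summed to between 7372 and 7952 TPM-like units in vehicle and between 7158 and 7837 with VS-4718. Most of that sum came from PMEL and TYRP1, with vehicle means of 12.2 and 11.2 log2 units, and SOX10 was next at 8.20. Of the 11 rows 9 had a mean above 1 unit, while TYR and MLANA lay below it. The rows for fibroblast (4 of 6), immune (1 of 5) and epithelial (1 of 5) markers all had means below 1 unit, and of the endothelial rows (2 of 4) only PECAM1 exceeded it. Row names follow mouse usage although the line is human: 2691 names matched no human gene and held between 43.5% and 44.7% of the summed level of a library. A level is therefore that of a row in this table. The row named TAZ carries a symbol of tafazzin and was not used for WWTR1.

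No member was called different after VS-4718. Of the 10 members 9 were abundant enough to be tested, and 0 of the 9 passed limma with Benjamini-Hochberg adjustment over all 9229 tested rows, where 12 rows (0.13%) passed. None had an unadjusted p under 0.05 either, against 9.76% of all tested rows. Adjusted p-values of the members ran from 0.67 for MOB1A to 0.99 for WWTR1 (limma). In all 10 members the vehicle and VS-4718 values overlapped, while in 16.4% of tested rows they did not. The median log2 fold change (VS-4718 minus vehicle) of the 9 was 0.01, beside -0.03 for all tested rows. Means were lower in 3 members and higher in 6, and 58.2% of all tested rows had lower means. The 95% interval of limma lay within a 1.5-fold change in either direction for 8 of the 9, and LATS2 was the exception. In bulk RNA, a change in the number of cells that express a gene and a change in RNA per cell cannot be told apart.

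**Figure D1:**
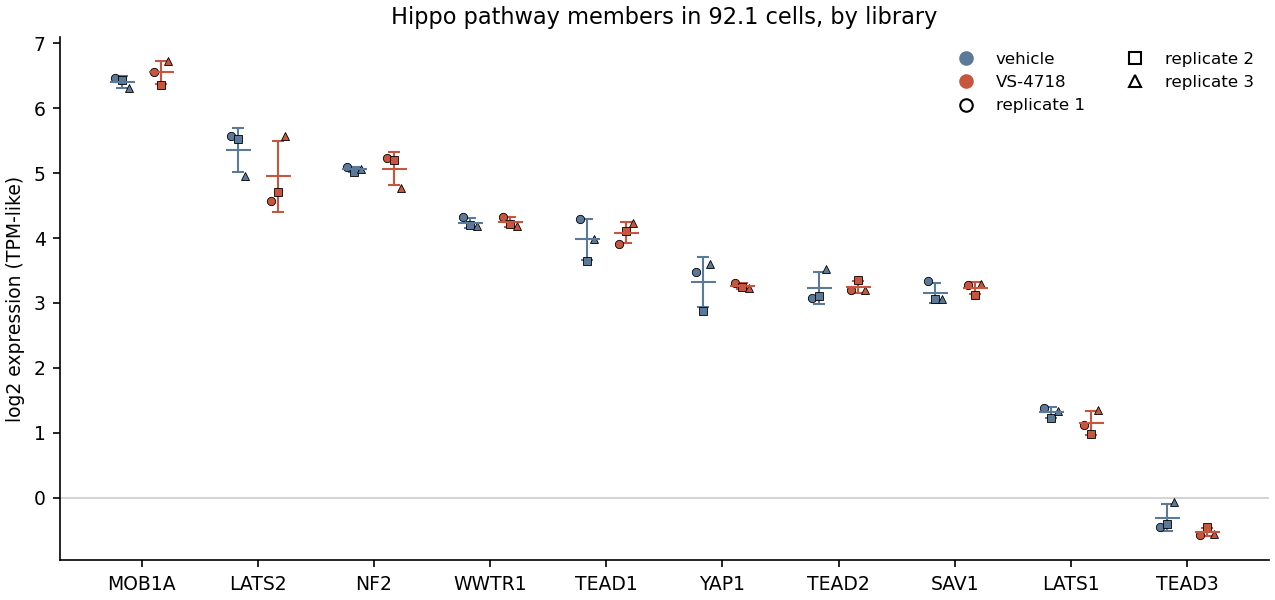
Log2 expression (TPM-like) of the 10 members, ordered by mean level, in the 3 vehicle (blue) and 3 VS-4718 (red) libraries. Marker shape gives the replicate number, horizontal bars the group mean and whiskers the SD (n = 3). The groups overlap in every member, and LATS2 has the widest spread within the VS-4718 group.

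Of the coactivator genes, WWTR1 was the more abundant, and YAP1 varied more between libraries in vehicle (SD 0.39 against 0.08) but not with VS-4718 (SD 0.04 against 0.07). WWTR1 stood at 4.33, 4.21 and 4.18 log2 units in vehicle and at 4.33, 4.21 and 4.19 with VS-4718. The 2 sets of values cover almost the same interval, with a log2 fold change of 0.00 (SE 0.08) and a 95% interval from 0.873-fold to 1.15-fold. YAP1 stood at 3.48, 2.88 and 3.60 in vehicle and at 3.31, 3.25 and 3.23 with VS-4718. Vehicle replicate 2 was the lowest of the 6, the other vehicle libraries were the highest, and the treated libraries lay close together between them. The log2 fold change of YAP1 was -0.06 (SE 0.19), with an interval from 0.700-fold to 1.32-fold. Without vehicle replicate 2 it was -0.28 (adjusted p = 0.55, limma). On the linear scale YAP1 made up 34.8% ± 5.9 (SD, n = 3) of the summed YAP1 and WWTR1 level in vehicle and 33.7% ± 0.5 with VS-4718. The within-library log2 difference YAP1 minus WWTR1 lay between -1.33 and -0.58 in the 6 libraries, so WWTR1 was the higher in each.

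TEAD proteins recognise a short DNA element with the core CATTCC, or GGAATG read on the other strand. That core was looked for on both strands in the RefSeq promoter windows (GRCh38.p14), each with 250 bases before a gene's start and 50 after it. It was found in 14.0% of all 35116 windows. Of the members 9 had at least 1 window, 14 in all, and YAP1 and LATS2 had a match. The stretches with a match are shown here for these members and for CCN2 and AMOTL2, target genes described further on, to let a reader see what a TEAD would contact. AMOTL2 had the core in 1 of its 2 windows. TEAD1, TEAD4 and the target gene CCN1 had no window and could not be searched. Capitals mark the core, and each stretch reads 5′ to 3′ on the gene's strand.
YAP1: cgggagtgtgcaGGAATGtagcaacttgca
LATS2: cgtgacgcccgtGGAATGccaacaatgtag
CCN2 (distal): ttttcagacggaGGAATGctgagtgtcaag
CCN2 (proximal): gtggggaGGAATGcgaGGAATGtccctgtt
AMOTL2: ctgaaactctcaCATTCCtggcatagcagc
The YAP1 stretch lies at chr11:102110273-102110302 on the plus strand. The others are on the minus strand, LATS2 at chr13:21061560-21061589, CCN2 at chr6:131951524-131951553 and chr6:131951454-131951483, and AMOTL2 at chr3:134374499-134374528. Counted from the start that the RefSeq window uses, the first base of the core is 162 bases before it in YAP1 and base 10 after it in LATS2. The GENCODE gene spans given further on begin at other bases, and the LATS2 stretch lies outside its GENCODE span. A match of letters is a description and does not show that a TEAD binds there.

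Of the DNA-binding partners, TEAD1 was the most abundant member and TEAD3 was nearly silent. TEAD1 stood at 4.29, 3.65 and 3.99 log2 units in vehicle and at 3.90, 4.11 and 4.22 with VS-4718. The treated values lay inside the range of the vehicle values, and the log2 fold change was 0.10 (SE 0.17), with an interval from 0.805-fold to 1.43-fold. TEAD2 stood at 3.07, 3.11 and 3.52 in vehicle and at 3.20, 3.36 and 3.19 with VS-4718, again inside the vehicle range. Its log2 fold change was 0.02 (SE 0.15). TEAD3 stood at -0.45, -0.41 and -0.07 in vehicle and at -0.58, -0.45 and -0.55 with VS-4718. That is below 1 TPM-like unit in every library and below the mean of 0.70 required for testing. The difference in means was -0.22, and with no filter its adjusted p was 0.82 (limma).

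TEAD4, the paralog outside the 10, was the most abundant of the 4 TEAD genes. It took 69.0% ± 3.9 (SD, n = 3) of their summed linear level in vehicle and 62.9% ± 4.5 with VS-4718, against 18.6% ± 1.8 and 23.2% ± 3.4 for TEAD1, 11.4% ± 3.0 and 13.0% ± 1.5 for TEAD2, and about 1% for TEAD3 (0.970% and 0.945%). TEAD4 stood at 6.17, 5.76 and 5.69 log2 units in vehicle and at 5.72, 5.38 and 5.48 with VS-4718. Treated replicate 1 lay above vehicle replicate 3, so the groups overlapped by one library. The log2 fold change was -0.34 (SE 0.15) and did not pass (adjusted p = 0.53, limma). With a library left out it ran from -0.44 (without VS-4718 replicate 1) to -0.19 (without vehicle replicate 1). The 4 genes together summed to 100.5, 76.1 and 79.8 TPM-like units in vehicle and to 77.7, 69.9 and 73.3 with VS-4718. Vehicle replicate 1 was the highest of the 6 and the other sums overlapped.

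**Figure D2:**
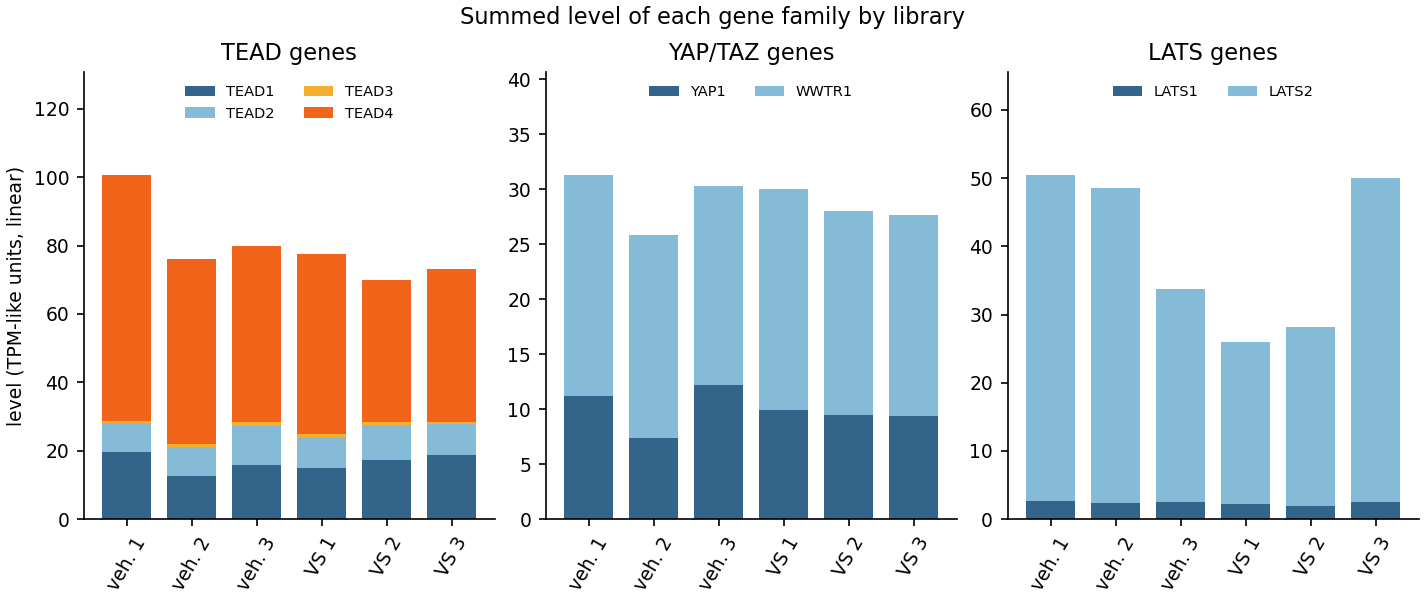
Linear level (TPM-like units, stacked) of the TEAD, YAP/TAZ and LATS genes in each of the 3 vehicle (veh.) and 3 VS-4718 (VS) libraries; the 3 panels have separate vertical axes starting at 0. TEAD4, WWTR1 and LATS2 are the largest part of their family in each library, and the LATS sum of VS-4718 replicate 3 is as high as in vehicle replicates 1 and 2.

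Of the kinases that phosphorylate YAP and TAZ, nearly all of the LATS transcript was LATS2, the member with the largest difference between the groups. LATS2 stood at 5.58, 5.53 and 4.96 log2 units in vehicle and at 4.57, 4.71 and 5.57 with VS-4718. In linear terms that was 47.8, 46.1 and 31.2 TPM-like units against 23.7, 26.1 and 47.5. Treated replicates 1 and 2 were the lowest of the 6 libraries, whereas treated replicate 3 was as high as vehicle replicates 1 and 2. The log2 fold change was -0.41 (SE 0.29), its interval ran from 0.468-fold to 1.21-fold, and it did not pass (adjusted p = 0.68, limma). It was -0.72 (SE 0.20) without VS-4718 replicate 3, with an adjusted p of 0.34, and -0.22 without VS-4718 replicate 1. LATS1 stood at 1.39, 1.22 and 1.33 in vehicle and at 1.12, 0.98 and 1.35 with VS-4718. Here too treated replicates 1 and 2 were the lowest and treated replicate 3 lay in the vehicle range, at a much lower level. The log2 fold change of LATS1 was -0.16 (SE 0.16, adjusted p = 0.77, limma). LATS2 made up 94.2% ± 1.4 of the summed LATS level in vehicle and 93.2% ± 1.7 with VS-4718, and within a library it was between 10.9-fold and 19.8-fold higher than LATS1.

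Among the accessory genes, MOB1A had a slightly higher mean with VS-4718 and the others differed by less, none past the test. MOB1A, which encodes the adaptor and activator of LATS kinases, was the most abundant member. It stood at 6.47, 6.44 and 6.30 log2 units in vehicle and at 6.56, 6.37 and 6.73 with VS-4718, with treated replicates 1 and 3 above every vehicle library and treated replicate 2 between vehicle values. Its log2 fold change was 0.15 (SE 0.10, interval 0.937-fold to 1.31-fold). The paralog MOB1B was at 3.70, 2.68 and 3.02 in vehicle and 3.24, 2.43 and 2.57 with VS-4718, a log2 fold change of -0.39 (SE 0.31) that did not pass either (adjusted p = 0.72, limma); leaving out vehicle replicate 1 or 2 gave -0.10 or -0.61, and leaving out treated replicate 1 or 2 gave -0.63 or -0.23. MOB1A held 90.4% ± 2.9 of the summed level of the pair in vehicle and 93.2% ± 2.0 with VS-4718.

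NF2, the tumour suppressor that brings LATS kinases to the membrane, stood at 5.10, 5.02 and 5.06 in vehicle and at 5.23, 5.21 and 4.78 with VS-4718. The vehicle libraries had an SD of 0.04 and the treated libraries one of 0.25: replicates 1 and 2 were above all vehicle values and replicate 3 below all of them. The log2 fold change of NF2 was 0.01 (SE 0.13), and 0.16 (SE 0.07, adjusted p = 0.49, limma) without VS-4718 replicate 3. SAV1, the scaffold that joins STK3 and STK4 to LATS, stood at 3.34, 3.05 and 3.07 in vehicle and at 3.27, 3.13 and 3.29 with VS-4718, all within the vehicle range. Its log2 fold change was 0.08 (SE 0.12). Across the members, VS-4718 replicate 3 was the highest treated library for LATS2, LATS1, MOB1A, SAV1 and TEAD1 and the lowest for NF2, YAP1, WWTR1 and TEAD2, by wide margins only for LATS2 and NF2.

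**Figure D3:**
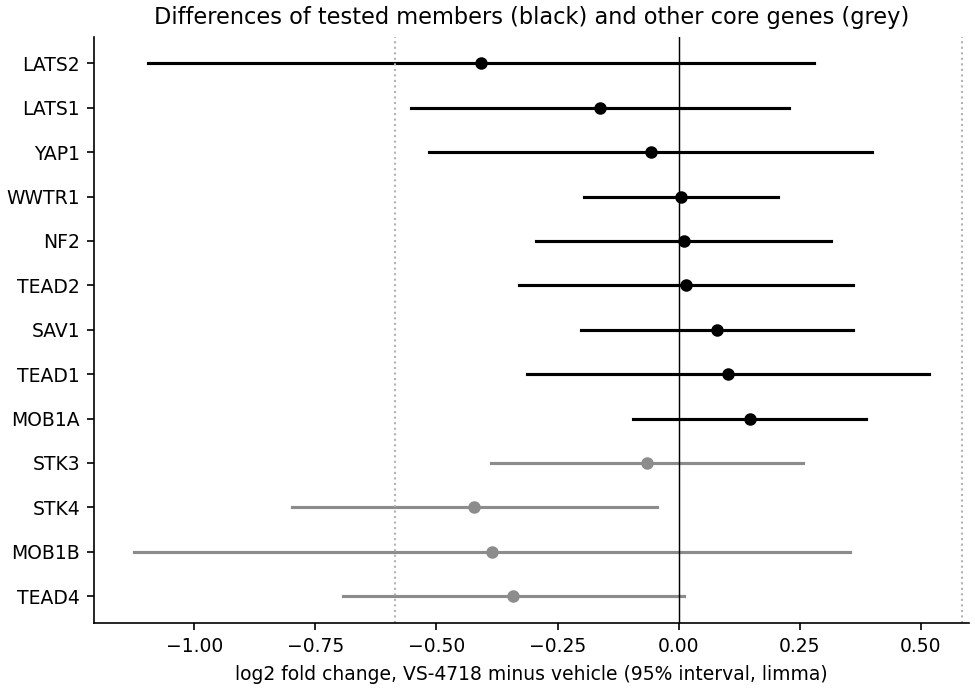
Log2 fold changes (VS-4718 minus vehicle, dots) with limma's 95% intervals (lines) of the 9 tested members (black) and of STK3, STK4, MOB1B and TEAD4 (grey); dotted lines mark a 1.5-fold change. Each black interval includes 0, and LATS2 has the only black interval that crosses a dotted line.

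In order of mean level over the 6 libraries, the members ran MOB1A (89.2 TPM-like units, geometric mean), LATS2 (35.6), NF2 (33.5), WWTR1 (18.9), TEAD1 (16.3), YAP1 (9.80), TEAD2 (9.45), SAV1 (9.14), LATS1 (2.35) and TEAD3 (0.747). Ranges over libraries did not overlap between MOB1A and LATS2, NF2 and WWTR1, TEAD1 and YAP1, SAV1 and LATS1, or LATS1 and TEAD3. They overlapped between LATS2 and NF2, WWTR1 and TEAD1, YAP1 and TEAD2, and TEAD2 and SAV1, so the order within those pairs is not resolved. These levels are per transcript length. The submitters' notes name GRCh38, a human build, but not the transcript index or why row names follow mouse usage. Had reads been matched to mouse transcripts, the levels, family shares and folds between paralogs given here would be affected. They would then also reflect how closely each human transcript resembles its mouse counterpart.

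Differences between 2 paralogs within a library do not move with a scaling factor of that library, and 5 such differences were compared between the groups by exact two-sided permutation, for which 0.1 is the smallest p that 3 libraries against 3 allow. TEAD2 minus TEAD3 was 3.52, 3.52 and 3.59 log2 units in vehicle and 3.78, 3.81 and 3.75 with VS-4718. These groups did not overlap, with a change of 0.23 (exact permutation p = 0.1, adjusted over the 5 p = 0.5). Most of that change lay in TEAD3 (-0.22, beside 0.02 for TEAD2), whose level was too low to be tested. TEAD1 minus TEAD3 changed by 0.32 (exact p = 0.3), LATS2 minus LATS1 by -0.24 (exact p = 0.6), TEAD1 minus TEAD2 by 0.09 (exact p = 0.7) and YAP1 minus WWTR1 by -0.06 (exact p = 0.7). Adjusted over the 5 comparisons, each of these had p = 0.7 in the exact permutation test.

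**Figure D4:**
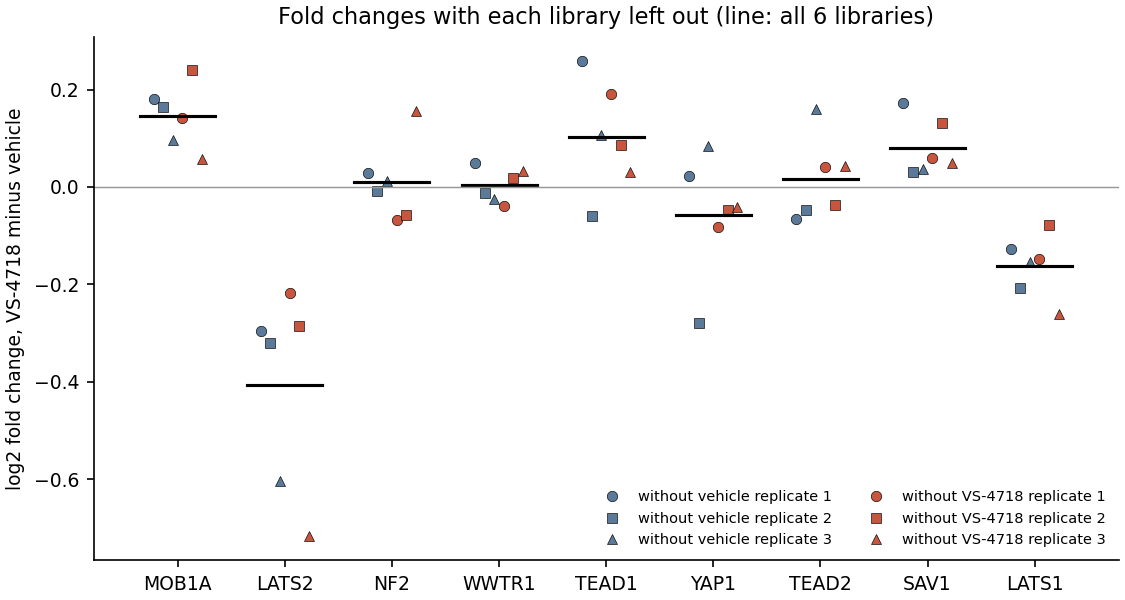
Log2 fold changes (VS-4718 minus vehicle) of the 9 tested members when each of the 6 libraries is left out in turn (symbols; blue for a vehicle and red for a VS-4718 library left out), with the value from all 6 libraries as a black line. LATS2 stays below 0 in all 6 fits, from -0.72 to -0.22, while YAP1, WWTR1, TEAD1, TEAD2 and NF2 lie on both sides of 0.

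The rest of the pathway was read from 113 gene symbols in 7 lists by role, of which 91 had a row and 80 were tested. One of the 80 passed over all rows: CYR61 (CCN1). Without adjustment 9 had a limma p under 0.05, all with lower means, or 11.3% beside 9.76% of all tested rows (6.74% for lower ones). Lower means were seen in 58 of 80 (72.5%, beside 58.2% of all tested rows), with a median log2 fold change of -0.11. Groups did not overlap in 19 of the 80, all of them lower, where 11.2% of all tested rows were lower without overlap. The lists were chosen with earlier results of these data known and were not tested as lists.

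The 4 core genes outside the members, STK3, STK4, MOB1B and TEAD4, all had lower means, where 58.2% of all tested rows did. Their median was -0.36 and none passed the test. STK4 (MST1) stood at 4.03, 4.20 and 3.82 log2 units in vehicle and at 3.78, 3.31 and 3.71 with VS-4718. All treated values lay below all vehicle values, but treated replicate 1 and vehicle replicate 3 were only narrowly apart. Its log2 fold change was -0.42 (SE 0.16, adjusted p = 0.48, limma). STK3 (MST2) stood at 2.61, 2.62 and 2.52 in vehicle and at 2.43, 2.38 and 2.74 with VS-4718, with a log2 fold change of -0.07 (SE 0.14). Kinases that can act beside STK3 and STK4 had 5 of 12 lower (41.7%, beside 58.2% of all tested rows). None passed, and the median was 0.04. TAOK3 went from 5.23 ± 0.02 (SD) to 5.12 ± 0.02, TAOK2 from 3.69 ± 0.26 to 3.35 ± 0.36 and STK24 from 7.16 ± 0.10 to 7.26 ± 0.08; their groups overlapped for TAOK2 and STK24.

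Genes for scaffolds and junction proteins upstream of the cascade had 11 of 15 lower (73.3%, beside 58.2% of all tested rows). Their median was -0.10 and none passed the test. AMOTL2, which encodes an angiomotin-like YAP-binding protein and is itself a YAP target, had the largest difference of all 80, from 3.39, 4.04 and 3.47 log2 units in vehicle to 2.73, 2.05 and 2.50 with VS-4718. The groups were well apart, and the log2 fold change of -1.2 (SE 0.24) had an adjusted p of 0.22 (limma). The values of its relative AMOTL1 (-0.39, SE 0.23) overlapped between groups. Genes whose products restrain the kinases had 15 of 20 lower (75%, beside 58.2% of all tested rows). Their median was -0.11 and none passed the test. AJUBA, a LIM protein that holds LATS inactive at junctions, went from 2.69 ± 0.10 to 2.08 ± 0.14 (adjusted p = 0.25, limma), without overlap. STRN4 and PPP2CB belong to STRIPAK, the phosphatase complex that switches off STK3 and STK4. STRN4 went from 6.79 ± 0.02 to 6.63 ± 0.08 and PPP2CB from 6.98 ± 0.03 to 6.86 ± 0.08, both without overlap and neither past the test.

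Genes for the turnover of YAP, TAZ and LATS had 11 of 12 lower (91.7%, beside 58.2% of all tested rows), with a median of -0.18. Of the 12, 6 were lower without overlap, where 11.2% of all tested rows were. None passed. CSNK1D, a kinase that primes YAP for destruction after LATS has acted, stood at 7.11, 7.17 and 6.89 log2 units in vehicle and at 6.47, 6.64 and 6.59 with VS-4718. The treated libraries were all below the vehicle libraries, with a log2 fold change of -0.49 (SE 0.09, adjusted p = 0.18, limma). DCAF1, part of a ubiquitin ligase that acts on LATS, went from 6.48 ± 0.04 to 6.08 ± 0.19 (adjusted p = 0.31, limma), and the ubiquitin ligase gene WWP1 from 2.69 ± 0.08 to 2.45 ± 0.10. Nuclear cofactors and competitors had 4 of 7 lower (57.1%, beside 58.2% of all tested rows) and a median of -0.01. None had an unadjusted limma p under 0.05. VGLL4, which competes with YAP for TEAD, had a log2 fold change of -0.14 (SE 0.13), the acetyltransferase EP300 one of -0.13 (SE 0.12) and IRF2BP2 one of -0.07 (SE 0.09).

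**Figure D5:**
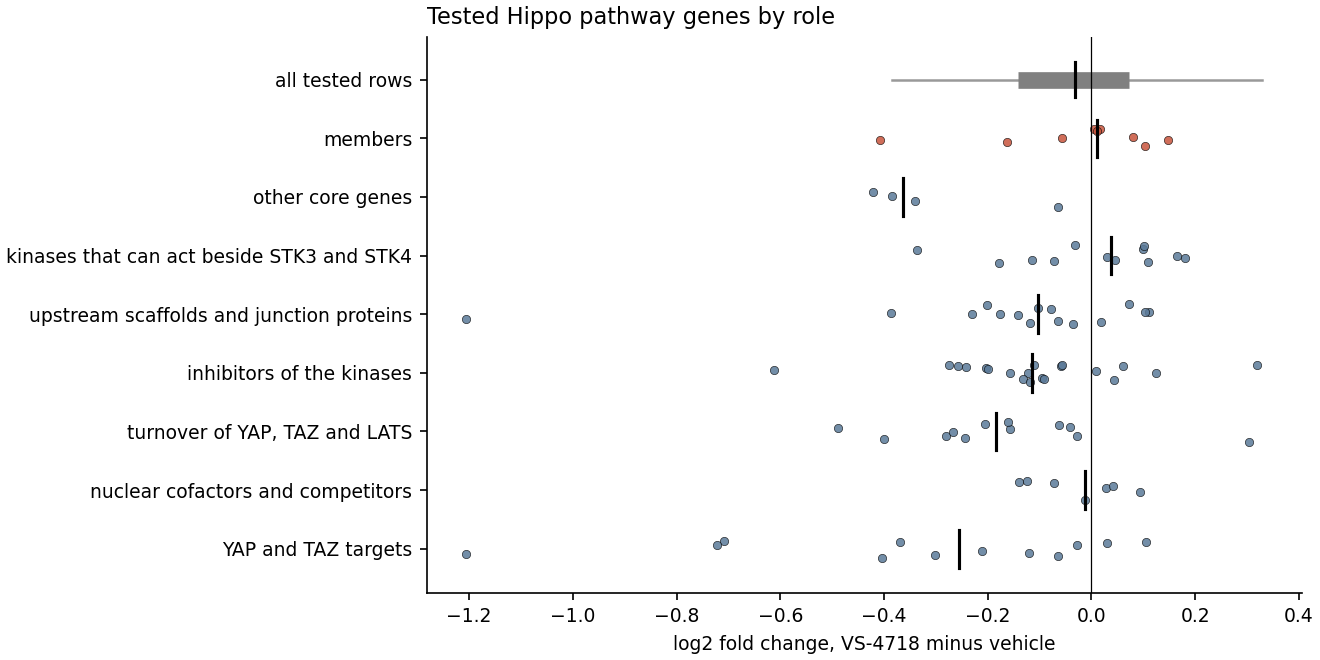
Log2 fold changes (VS-4718 minus vehicle) of tested genes by role, 1 dot per gene in each list. The 9 tested members are in red and other pathway genes in blue (AMOTL2 and PTPN14 are each in 2 lists). Black bars are medians. The grey band at the top gives the middle 50% and the thin line the middle 90% of all 9229 tested rows. Medians are 0.01 for the members, -0.36 for the 4 other core genes, -0.18 for the turnover list and -0.26 for the target list.

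Target genes of YAP and TAZ had 10 of 12 lower (83.3%, beside 58.2% of all tested rows), with a median of -0.26, and 1 passed. CYR61 (CCN1), a secreted matrix protein, fell from 5.39, 5.46 and 5.39 log2 units in vehicle to 4.76, 4.70 and 4.66 with VS-4718 (log2 fold change -0.71, SE 0.07, adjusted p = 0.023, limma). All treated libraries were lower by far more than the spread within a group. The call was lost in 9 of 16 alternatives, among them each fit with a library left out, with adjusted p up to 0.20, while the log2 fold change stayed between -0.73 and -0.67. CTGF (CCN2), whose promoter stretches are printed above, stood at 2.80, 3.20 and 2.16 in vehicle and at 2.32, 2.47 and 1.2 with VS-4718. The groups overlapped. Its log2 fold change of -0.72 (SE 0.40) was as large as that of CYR61 but did not pass (adjusted p = 0.61, limma). With a library left out it ran from -1.0 to -0.32. VS-4718 replicate 3 had the lowest CTGF value of the 6 libraries and, in vehicle, replicate 3 had the lowest.

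In GENCODE 29 on GRCh38 all 10 members are protein-coding genes; the values are per gene and refer to no single exon. YAP1 spans chr11:102110461-102233423 and TEAD1 chr11:12674591-12944483, both on the plus strand, as is NF2 at chr22:29603556-29698598. The others are on the minus strand: WWTR1 at chr3:149517235-149736714, TEAD2 at chr19:49340595-49362457, TEAD3 at chr6:35473597-35497076, LATS1 at chr6:149658153-149718256, LATS2 at chr13:20973032-21061547, MOB1A at chr2:74152528-74178898 and SAV1 at chr14:50632058-50668331.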

How the data were processed

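The authors deposited 1 table of log2 values per gene symbol and library; per the submitters' processing notes kallisto and GRCh38 were used, while index, annotation and filters are not given in the sources. Raised to linear scale, each library sums to between 836527 and 840714, hence "TPM-like". Depth cannot be recovered from such values and no counting interval is given.

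The values were fitted with limma 3.58.1 (R 4.3.3; linear model with treatment as its single term, mean-variance trend, two-sided, Benjamini-Hochberg at 0.05) on the 9229 rows whose mean was above the lowest 25% (0.70). On simulated data with 9229 rows, the fit for this comparison recovered 50.7% of changes of 0.5 log2 units, 70.1% of 1 and 92.4% of 2, with 11 false calls. The simulation used independent normal noise and planted changes, so these shares may not hold for the real table. There 12 rows passed, and AMOTL2 at -1.2 log2 units (adjusted p = 0.22, limma) and CSNK1D at -0.49 (adjusted p = 0.18, limma) did not. Paralog differences used exact permutation. The fit was repeated with a replicate block, without each library in turn, with median scaling, no or a stricter filter, no trend, robust variances, quality weights, a pseudocount of 1, human-named rows and a minimum change of 1.2-fold.

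Named were all members, TEAD4, MOB1B, STK3, STK4, CCN1, CCN2, AMOTL2 and, per list, the genes past the threshold or else the 3 with the smallest p; for YAP1, WWTR1 and LATS2 also the 3 most alike rows. Some genes that this rule selects are not reported here. The members and lists were chosen with earlier results of these data known.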

Additional observations from a re-analysis of the deposited data

How the results depend on the processing

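No member was called in any of the 16 alternatives; the smallest adjusted p of a member was 0.34 (LATS2 without VS-4718 replicate 3). At an unadjusted limma p under 0.05 stood YAP1 without vehicle replicate 2, MOB1A without VS-4718 replicate 2 and LATS2 without VS-4718 replicate 3, and no member in the other alternatives. LATS1, LATS2, MOB1A and SAV1 kept their direction throughout, and YAP1, WWTR1, TEAD1, TEAD2 and NF2 did not. With a library left out, log2 fold changes ran from -0.28 to 0.084 for YAP1, -0.038 to 0.048 for WWTR1, -0.061 to 0.26 for TEAD1, -0.066 to 0.16 for TEAD2 and -0.067 to 0.16 for NF2, and from -0.18 to 0.0030 for STK3. TEAD2 was also negative with quality weights (-0.029). The paralog differences ran from -0.27 to 0.11 for YAP1 minus WWTR1 from -0.052 to 0.33 for TEAD1 minus TEAD2, from -0.46 to -0.07 for LATS2 minus LATS1, from 0.21 to 0.55 for TEAD1 minus TEAD3 and from 0.22 to 0.26 for TEAD2 minus TEAD3. Called rows over the whole table numbered 12, and 0 to 7 with a library left out (7 without vehicle replicate 2, 1 without VS-4718 replicate 1, otherwise 0), 0 with the replicate block (793 at an unadjusted limma p under 0.05), 0 without trend (910) and 0 against 1.2-fold (146). The single call among other pathway genes, CYR61, was lost with the replicate block, without trend and against 1.2-fold (0 calls each), and with any library left out (0 calls). Fits with a block or fewer libraries have fewer degrees of freedom; the cause was not tested. Residuals of libraries with the same number correlated at 0.13, 0.05 and 0.03 across rows, and of other pairs at -0.09 to 0.05. Each vehicle library was most like the treated library of its number, but VS-4718 replicate 3 was most like vehicle replicate 2. These values do not settle whether the numbers mark pairs, and the main fit did not pair them. The block lowered the SE of CTGF (0.40 to 0.15), MOB1B (0.31 to 0.12) and TEAD4 (0.15 to 0.08). It raised that of LATS2 (0.29 to 0.33), AMOTL2 (0.24 to 0.28) and CYR61 (0.07 to 0.08), and other named genes went either way. With the block the adjusted p (limma) was 0.49 for CTGF, 0.50 for TEAD4 and 0.52 for MOB1B.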

Other observations

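Other rows followed the library-to-library pattern of single members closely, given here as a description over 6 libraries after subtracting group means. LATS2 was most like CCDC28A (Pearson r = 0.996), NRN1 (0.996) and MATR3 (0.993), and 245 of 9228 rows exceeded an r of 0.9. YAP1 was most like ERC1 (0.997), SRGAP1 (0.995) and OGG1 (0.992), with 225 rows over 0.9. WWTR1 was most like MTCH1 (0.998) and INO80E (0.997), with 163 rows over 0.9. The points share their libraries, and with so few of them high values of r are common.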
